A study of Rattus norvegicus with 6 samples.

Results

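The lung lineage transcription factors described here are 10 genes, Nkx2-1, Foxa1, Foxa2, Gata6, Sox9, Foxf1, Tbx2, Tbx3, Tbx4 and Tbx5. They were taken by gene name from the table of linear transcripts, in which they hold 44 of 70376 transcripts and 10 of 21655 gene names. The samples were lung tissue of 3 control and 3 pulmonary fibrosis (PF) model Sprague-Dawley rats, with one library of RNA depleted of ribosomal RNA per sample. As the methods of the study describe, rats that were 7 weeks old at the start received one instillation of bleomycin at 7 mg/kg into the trachea (PF model) or the same volume of saline (control), and lungs were collected on day 28. The labels give no more than control or model for each library, and which of the 20 rats of the study were sequenced is not given in the sources used here. Values are FPKM, fragments counted relative to transcript length and library size. A level per gene is the sum over transcripts that carry its name, lie on its strand and share exons with it. In RNA from bulk lung tissue, fewer cells of a type and less RNA per cell cannot be told apart.

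These factors set up the lung and keep its cell types. Nkx2-1 marks the endoderm that becomes lung and thyroid and keeps alveolar and airway epithelial identity, Foxa1 and Foxa2 open chromatin at endoderm genes, Gata6 acts with them on surfactant genes, and Sox9 marks the tips of the branching epithelium. On the mesenchymal side, Foxf1 receives the Hedgehog signal from the epithelium and is needed in the lung endothelium, and the T-box genes Tbx2, Tbx3, Tbx4 and Tbx5 act in the mesenchyme that drives branching. The T-box genes lie in pairs, Tbx2 with Tbx4 on chromosome 10 and Tbx3 with Tbx5 on chromosome 12 in the coordinates of the deposited table, whose genome build is not given in the sources used here.

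None of the 10 factors passed, between PF model and control lungs, the rule of the study's methods, which asks for p no larger than 0.05 together with group means at least 1 apart on the log2 scale. Across all 19159 genes tested with limma, 278 passed that rule (1.45%), 129 higher (0.673%) and 149 lower (0.778%) in the PF model, and on the TPM scale the split was 192 higher and 130 lower. At an unadjusted p of at most 0.05 alone, 0 of 10 factors and 4.47% of all genes passed, and at an adjusted p below 0.05 there were 0 factors and 2 genes (0.0104%). Foxa1 and Tbx2 have no annotated transcript in the table, so their tests come from a fit over all 19541 named genes, of which 1.43% were called. By fitted log2 fold change, 5 factors lay above 0 and 5 below, with a median of 0.02, and the median of all genes tested was -0.002. Among transcripts, the rule was passed by 1 of 37 tested in the factors and by 2 of 47 tested assembled ones at their loci, against 2.98% of all transcripts. At the Gata6 locus 1 was lower and 1 higher in the PF model, and MSTRG.6156.1 before Tbx2 was lower. They are described with Gata6 and Tbx2.

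**Figure D1:**
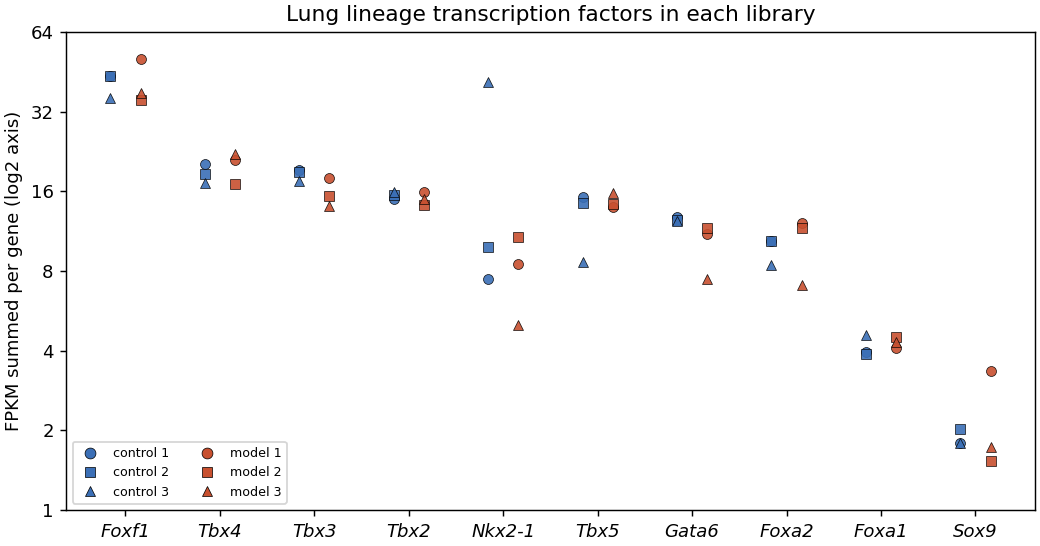
FPKM summed per gene (log2 axis) of each factor in each library, with controls in blue, PF model in red and the replicate number by marker shape. Control 3 stood at 41.4 FPKM for Nkx2-1 while the other libraries lay between 5.01 and 10.8, and the Gata6 values of the 3 model libraries all lay below those of the 3 controls.

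RefSeq sequence was at hand for the promoters of 5 of the 10 factors, in the build GRCr8, which differs from the coordinates of the deposited table. For Nkx2-1, Tbx4 and Tbx5 the window lies within the span of the gene, so no sequence is shown for these 3. The 250 bases before the RefSeq start are shown for Gata6, the gene with the called transcripts, and for Foxa2, its partner at surfactant genes. They lie on the plus strand at chr18:2460659-2460908 and on the minus strand at chr3:155927509-155927758. In the deposited coordinates Foxa2 is on the plus strand.
Gata6: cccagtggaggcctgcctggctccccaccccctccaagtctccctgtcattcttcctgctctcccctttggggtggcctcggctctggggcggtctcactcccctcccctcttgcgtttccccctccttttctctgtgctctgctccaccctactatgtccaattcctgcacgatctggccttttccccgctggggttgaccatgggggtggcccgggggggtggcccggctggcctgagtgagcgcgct
Foxa2: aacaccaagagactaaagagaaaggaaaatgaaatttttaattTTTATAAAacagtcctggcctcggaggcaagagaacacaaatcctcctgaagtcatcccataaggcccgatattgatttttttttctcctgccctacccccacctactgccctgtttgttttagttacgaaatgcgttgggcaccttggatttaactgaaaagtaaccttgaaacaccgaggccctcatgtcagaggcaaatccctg
Capitals mark matches, on either strand, to short motifs of the factor families and to the TATA motif. The motifs searched were AGATAA for GATA factors, TGTTTNC for forkhead factors, CTCAAG for NKX2-1, AACAAT for SOX factors, GGTGTGA for T-box factors and TATAAA for the TATA box. They occur in 10.3%, 18.3%, 13.3%, 10.3%, 3.22% and 12.9% of 33469 promoter windows of the same length, in that order. The Gata6 window holds none of them and is richer in G and C than the median window (51.2%). In the Foxa2 window, which is 42.8% G and C, a TATAAA and its reverse complement overlap, starting 205 and 207 bases before the RefSeq start.

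Nkx2-1, the master factor of lung epithelium, stood apart in one control library. Its FPKM was 7.48, 9.90 and 41.4 in controls 1, 2 and 3, and 8.53, 10.8 and 5.01 in models 1, 2 and 3. Control 3 was the highest of the 6 libraries, and the other 2 controls lay within the range of the models. The fitted log2 fold change was -0.85 ± 0.62 (SE, n = 3 and 3; adjusted p = 0.95 from limma, exact permutation p = 0.5), and without control 3 it was -0.13. The log2 ratio of the group means was -1.27, so Nkx2-1 met the fold part of the rule and not the p part.

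The excess of control 3 sat in one transcript. The annotated ENSRNOT00000011453 (chromosome 6, minus strand, 77418096 to 77421286, 2 exons) had 0.369, 0.0361 and 37.5 FPKM in controls and 0.00475, 0.00716 and 0.243 in models. The assembled MSTRG.30709.25, which reaches to 77423624, carried most of the name in the other libraries, with 7.11, 7.36 and 3.85 FPKM in controls and 8.52, 7.66 and 4.59 in models. MSTRG.30709.23, with 3 exons, was listed at 0, 2.51 and 0.0433 in controls and 0, 3.14 and 0.177 in models.
The assembly joined Nkx2-1 with a neighbour into one locus of 25 transcripts, of which 10 begin at the annotated Nkx2-1 start at 77421286 but carry the name AABR07064373.1. Their summed FPKM was 18.4, 11.1 and 11.999 in controls and 14.9, 15.972 and 10.4 in models. Reads estimated from coverage over the whole locus were 24208, 19809 and 22030 in controls and 24717, 23507 and 15744 in models, which overlapped (exact permutation test, p = 0.9). Control 3 was in the middle of the controls by that measure, but not by others. By summed FPKM over the locus it was the highest library, at 70.95 against 32.4 to 57.5 in the rest. By estimated reads of the 12 transcripts with the annotated start it was also the highest (14705), little above control 1 (14508). Of the estimated reads over the whole locus, the name Nkx2-1 held 6.63%, 9.46% and 23.2% in controls and 7.93%, 8.91% and 6.71% in models. A transcript on the opposite strand, MSTRG.30710.1, starts 490 bases away from the annotated start, and its span shares 1849 bases with that of MSTRG.30709.25. It had 0.185, 0.0819 and 0.218 FPKM in controls against 0.41, 0.27 and 0.0991 in models.

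**Figure D2:**
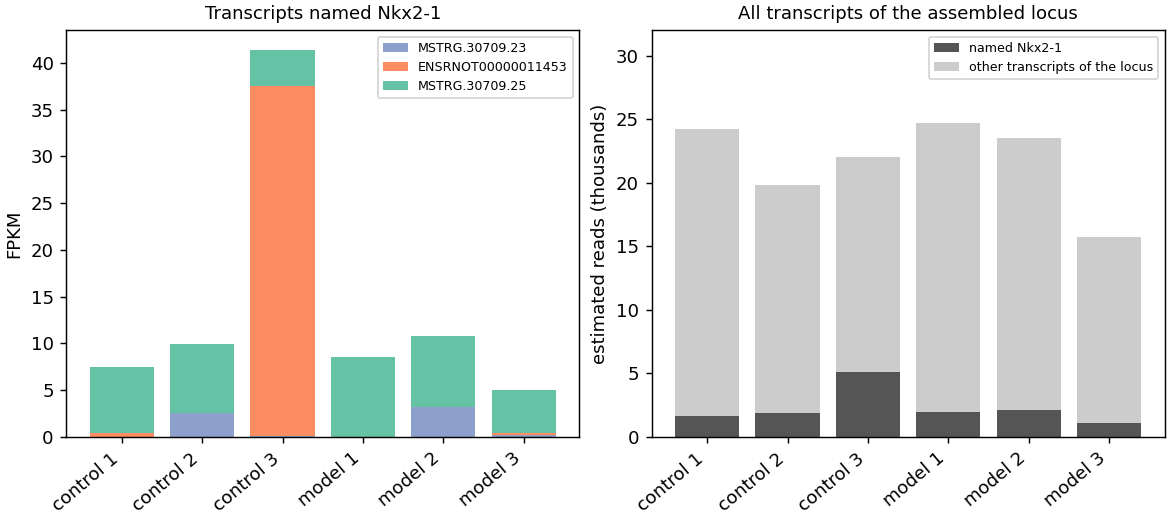
Left, FPKM of the 3 transcripts named Nkx2-1 stacked per library. Right, estimated reads in units of 1000 over the assembled locus of 25 transcripts, with the part under the name Nkx2-1 in dark grey. ENSRNOT00000011453 fills the bar of control 3 on the left (37.5 FPKM), while on the right control 3 has 22030 reads, between the other controls.

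Foxa1 and Foxa2, pioneer factors of the endoderm, had gene sums that overlapped between the groups. Foxa1 came from 1 assembled transcript, MSTRG.30729.1 (chromosome 6, minus strand, 78542219 to 78549734), with 3.97, 3.88 and 4.57 FPKM in controls and 4.10, 4.50 and 4.31 in models. All 3 model values lay within the range of the controls, and the log2 fold change was 0.05 ± 0.10 (SE; adjusted p = 0.978, exact permutation p = 0.6). Foxa2 had 10.4, 10.4 and 8.42 FPKM in controls and 12.1, 11.6 and 7.10 in models. Model 3 was the lowest and the other 2 models the highest of the 6, for a log2 fold change of 0.04 ± 0.20 (SE; adjusted p = 0.993, exact permutation p = 0.8).
Most of the Foxa2 signal was in MSTRG.24169.2, with 9.04, 5.77 and 8.05 FPKM in controls and 9.36, 8.65 and 6.95 in models. The annotated ENSRNOT00000017742 shares its start at 142383278 on the plus strand of chromosome 3. This annotated form was listed at 0 in control 3 and in model 3 and had between 0.761 and 3.44 FPKM in the other libraries. MSTRG.24169.1 starts earlier, at 142381656, and held 5.57%, 11.6% and 4.39% of the Foxa2 sum in controls against 2.91%, 3.21% and 2.13% in models. Those shares did not overlap (exact permutation test, p = 0.1, the smallest that 3 against 3 samples allow), while the FPKM of the transcript did.

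Gata6, a zinc finger factor of endoderm and smooth muscle, was the one factor whose plain FPKM sums did not overlap between the groups. Among all genes tested, 10.3% had groups that did not overlap. Its FPKM was 12.8, 12.4 and 12.4 in controls and 11.0, 11.6 and 7.46 in models. All models lay below all controls, by little in models 1 and 2, and the log2 fold change of -0.32 ± 0.16 (SE) did not pass (limma p = 0.0896, adjusted p = 0.95, exact permutation p = 0.1). Summed over every row of the name, with the transcript on the other strand included, the change was -0.04, and over annotated transcripts alone it was 0.09. Without model 3 the change in the gene sum was -0.14, and without model 2 it was -0.43 and passed the p part of the rule but not the fold part.

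Of the Gata6 transcripts on the strand of the gene, 1 passed the rule. MSTRG.16154.2 (chromosome 18, plus strand, 2416552 to 2433039, 4 exons, 8085 bases) begins at the annotated start of ENSRNOT00000030726 and ends inside the gene. It had 4.71, 4.53 and 4.61 FPKM in controls and 2.27, 2.19 and 1.52 in models. The controls were within 4.53 to 4.71 and no model was above 2.27 FPKM. Its log2 fold change was -0.92 ± 0.14 (SE; limma p = 0.000786, adjusted p = 0.425, exact permutation p = 0.1), and the log2 ratio of the group means was -1.21. It was the 1 transcript called of 37 tested among the 42 that enter the gene sums. Over all 64867 transcripts tested 2.98% were called, 1.22% higher and 1.76% lower, and 18 (0.0277%) passed an adjusted p below 0.05. Without this transcript the Gata6 sum was 8.12, 7.92 and 7.77 FPKM in controls and 8.74, 9.45 and 5.95 in models. Models 1 and 2 then lay above every control and model 3 still below every control. These sums are a description with no test, since the transcript left out was singled out for its difference.

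On the opposite strand, over the end of that transcript, lies the single-exon MSTRG.16155.1 (2429897 to 2433492, 3596 bases), which the assembly classes as intronic. It had 1.57, 0.995 and 0.272 FPKM in controls and 3.31, 3.80 and 2.61 in models. Every model was above every control, with the controls the more spread. The log2 fold change was 1.17 ± 0.29 (SE; limma p = 0.00795, adjusted p = 0.945, exact permutation p = 0.1), which passed the rule with a log2 ratio of 1.78. Among the 47 assembled transcripts that lay within 5000 bases of the factors and were tested, it was 1 of 2 called.
The spans of the 2 Gata6 transcripts share 3143 bases, and the one on the minus strand extends 453 bases past the other. The FPKM of the minus-strand transcript divided by that of the plus-strand one was 0.334, 0.22 and 0.0591 in controls and 1.46, 1.73 and 1.72 in models, a description with no test, since each transcript alone already lay apart between the groups. Estimated reads were 1764, 1559 and 1820 for the plus-strand transcript in controls and 889, 780 and 563 in models. For the minus-strand transcript they were 262, 152.5 and 47.9 in controls and 578, 600.4 and 431 in models. Their sum was 2026, 1712 and 1868 in controls and 1467, 1380 and 994 in models, and so stayed lower in every model. The labels name a stranded library kit, and whether strand was used when reads were assigned is not given in the sources used here. How reads were divided between the overlapping transcripts was not tested.

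**Figure D3:**
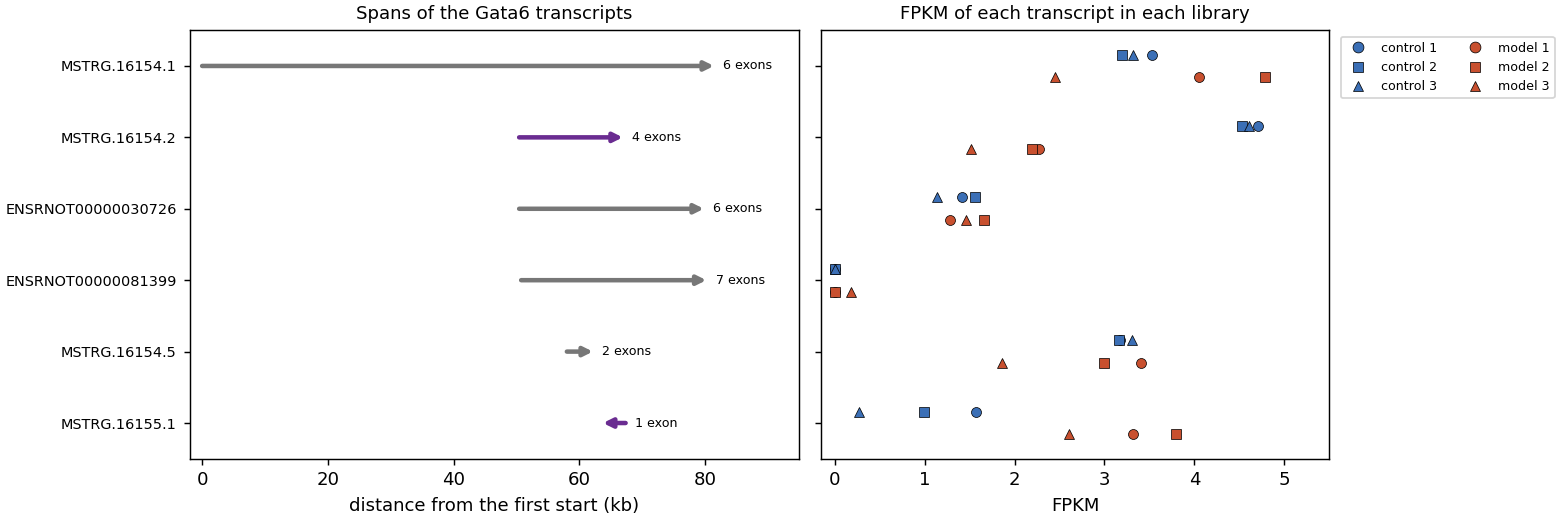
Left, spans of the Gata6 transcripts in kilobases from the first start, with arrows in the direction of transcription, introns included, and both called transcripts in purple. Right, FPKM of each transcript in each library, where MSTRG.16154.2 lies between 4.53 and 4.71 in controls and between 1.52 and 2.27 in models, and MSTRG.16155.1 is higher in every model.

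The other Gata6 transcripts did not pass the rule. MSTRG.16154.1, which begins 50435 bases before the annotated start, had 3.53, 3.20 and 3.31 FPKM in controls and 4.05, 4.79 and 2.45 in models. MSTRG.16154.5, a 2-exon transcript within the gene, had 3.17, 3.16 and 3.31 in controls and 3.41, 2.99 and 1.86 in models. The annotated ENSRNOT00000030726 stayed between 1.14 and 1.56 FPKM in controls and between 1.28 and 1.67 in models. ENSRNOT00000081399 was listed above 0 only in model 3, at 0.185.

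Sox9, the factor of distal epithelial tips and of cartilage, was the lowest of the 10. Its 1 annotated transcript, ENSRNOT00000003511 (chromosome 10, plus strand, 101288489 to 101293379), had 1.79, 2.02 and 1.80 FPKM in controls and 3.36, 1.53 and 1.72 in models. Model 1 was the highest of the 6 libraries and the other 2 models the lowest. The log2 fold change was 0.12 ± 0.22 (SE; adjusted p = 0.974, exact permutation p = 1.0), and without model 1 it was -0.13. Summed levels of 7 of 8 cartilage markers ran from 1.72 to 1.97 FPKM in controls and from 1.36 to 2.70 in models, and model 1 was the highest there too. That peak was in Col11a2, a cartilage collagen, at 2.30 FPKM in model 1 against 1.11 to 1.31 in controls. In the same library Acan, the cartilage proteoglycan, was listed at 0, and Cnmd (0.0238) and Col9a2 (0.381) were below every control. The part of cartilage in the Sox9 value was not tested. MSTRG.6908.1, a fragment of 215 bases that starts 365 bases past the end of Sox9, had 3.95, 6.32 and 3.56 FPKM in controls and 7.63, 1.70 and 3.13 in models.

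Foxf1, the forkhead factor of lung mesenchyme and endothelium, had the highest level of the 10. It had 43.6, 43.9 and 36.1 FPKM in controls and 50.9, 35.5 and 37.6 in models. The models included both the highest and the lowest value. The log2 fold change was -0.01 ± 0.16 (SE; adjusted p = 0.999, exact permutation p = 1.0), with means of 41.2 and 41.4 FPKM. Endothelial markers (6 of 8 found) summed to between 310 and 442 FPKM in controls and between 371 and 410 in models. The annotated ENSRNOT00000073858 (chromosome 19, plus strand, 53012332 to 53016086) made up between 75.3% and 95.8% of the sum in controls and between 80.6% and 95.4% in models. In control 3, the form that reaches to 53022492, MSTRG.17995.2, had its highest value, 8.92 FPKM, against 1.83 to 3.59 in the other libraries.

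Upstream of Foxf1 lies AABR07044017.1 on the opposite strand, with 18 transcripts that run away from Foxf1 and start at least 1011 bases before its start. MSTRG.17994.1, of the same name and strand but not among the 18, starts within Foxf1 and was at or near 0 in every library. The summed FPKM of the 18 was 19.7, 17.3 and 20.5 in controls and 20.02, 20.8 and 19.9 in models (exact permutation test, p = 0.4). One of the 18, MSTRG.17992.15, had 0, 1.24 and 0.683 FPKM in controls and 1.98, 7.96 and 1.399 in models. The groups did not overlap for this transcript, but model 2 was far above the other 2 models and it did not pass (log2 fold change 1.36 ± 0.58 (SE); adjusted p = 0.945). A further transcript, MSTRG.17993.1, runs on the strand of Foxf1 and ends 2024 bases before it. It had 12.3, 14.3 and 13.2 FPKM in controls and 14.2, 16.1 and 13.8 in models (adjusted p = 0.945).

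Tbx2, a T-box repressor of cell cycle inhibitors in lung mesenchyme, had nearly the same level in all libraries. Its FPKM was 15.04, 15.5 and 15.9 in controls and 15.9, 14.2 and 15.01 in models. The groups overlapped and the log2 fold change was -0.04 ± 0.08 (SE; adjusted p = 0.973, exact permutation p = 0.4). Of its 3 assembled transcripts (chromosome 10, plus strand, 73278953 to 73298466), MSTRG.6157.2 held between 64.4% and 72.9% of the sum in controls and between 71.0% and 74.2% in models.
The other called transcript at these loci lies just before Tbx2. MSTRG.6156.1 runs on the minus strand, carries no gene name and starts 279 bases before the Tbx2 start, so the transcripts run away from each other. It had 0.538, 0.441 and 0.434 FPKM in controls and 0.315, 0.112 and 0.162 in models, all models below all controls. The log2 fold change was -0.30 ± 0.09 (SE; limma p = 0.0156, adjusted p = 0.945, exact permutation p = 0.1), at between 8.27 and 41.9 estimated reads per library. Without model 2 the change was -0.25 and the call was lost. Its longer form MSTRG.6156.2 had 0.481, 0.328 and 0.69 FPKM in controls and 0.671, 0.263 and 0.423 in models, which overlapped.

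Tbx3, the partner of Tbx2 in holding back cell cycle inhibitors, had the smallest p of the 10 factors. Its FPKM was 19.3, 19.0 and 17.5 in controls and 18.0, 15.4 and 14.1 in models. Only model 1 reached into the range of the controls, and the log2 fold change was -0.23 ± 0.10 (SE; limma p = 0.0713, adjusted p = 0.95, exact permutation p = 0.2). With transcripts weighted by length, and with limma-voom on estimated reads, the change was -0.28 and passed the p part of the rule but not the fold part, and the same held without model 1. All models lay below all controls by the length-weighted sum (17.2 to 20.7 against 21.2 to 23.9). The same was so by estimated reads, which are not scaled for library size (3699 to 4687 against 4757 to 5001). The 12 transcripts of Tbx3 (chromosome 12, minus strand) were divided differently in each library. MSTRG.9312.12, for example, was listed at 0 in control 1 and model 3 and had 2.45 and 2.67 FPKM in controls 2 and 3. On the opposite strand LOC102551526 (MSTRG.9313.1) had 2.20, 0.592 and 0.734 FPKM in controls and 0.564, 0.389 and 0.403 in models. The groups lay apart by a small gap, with control 1 far above the rest, and the test did not pass (log2 fold change -0.51 ± 0.29 (SE); adjusted p = 0.945). One circular RNA among 5216 came from these genes, ciRNA85 from Tbx3, with 1 back-splice read in control 2 and 0 reads in the other 5 libraries, too few for a test.

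Tbx4, the T-box factor of lung and hindlimb mesenchyme, had 20.4, 18.6 and 17.2 FPKM in controls and 21.0, 17.0 and 22.1 in models. The models held the highest and the lowest value, with a log2 fold change of 0.09 ± 0.12 (SE; adjusted p = 0.958, exact permutation p = 0.5). Within the gene, the annotated ENSRNOT00000004736 (chromosome 10, plus strand, 73333119 to 73362783) held 67.4%, 62.1% and 57.1% of the sum in controls and 79.9%, 68.8% and 78.2% in models. These shares did not overlap, by a gap of little more than a percentage point between control 1 and model 2 (exact permutation test, p = 0.1). The FPKM of this transcript was 13.7, 11.5 and 9.85 in controls and 16.8, 11.7 and 17.3 in models, which overlapped.

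Tbx5, the factor shared by heart, forelimb and lung mesenchyme, had 15.2, 14.5 and 8.69 FPKM in controls and 14.0, 14.4 and 15.8 in models. Control 3 was the lowest by far and the other 5 libraries lay close together. The log2 fold change was 0.23 ± 0.20 (SE; adjusted p = 0.95, exact permutation p = 0.6), and without control 3 it was -0.01. The annotated ENSRNOT00000001893 (chromosome 12, plus strand, 42097626 to 42148146) had 2.28, 2.91 and 0 FPKM in controls and 3.07, 4.03 and 5.59 in models. All models were above all controls and control 3 was listed at 0, but the log2 fold change of 1.13 ± 0.55 (SE) did not pass (limma p = 0.0894, adjusted p = 0.945, exact permutation p = 0.1). Its share of Tbx5 was 15.03%, 20.1% and 0% in controls and 21.9%, 28.1% and 35.4% in models. Markers of cardiac muscle (8 of 8 found, none at 0 in all libraries) summed to between 6.79 and 11.4 FPKM in controls, to 6.92 and 7.25 in models 1 and 2 and to 29.9 in model 3. Some cardiac markers were above every control in models 1 and 2 too, namely Nppa in both (0.167 and 0.154 FPKM, at most 0.107 in controls), Sln in model 1 (0.358, at most 0.127) and Myl4 in model 2 (0.308, at most 0.168). Others were not. In models 1 and 2 Tnnt2, Myl7 and Actc1 lay within the range of the controls. Tnni3 was below every control in model 1 (0.487, at least 0.812 in controls) and within their range in model 2. The part of heart muscle in the Tbx5 values was not tested.

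**Figure D4:**
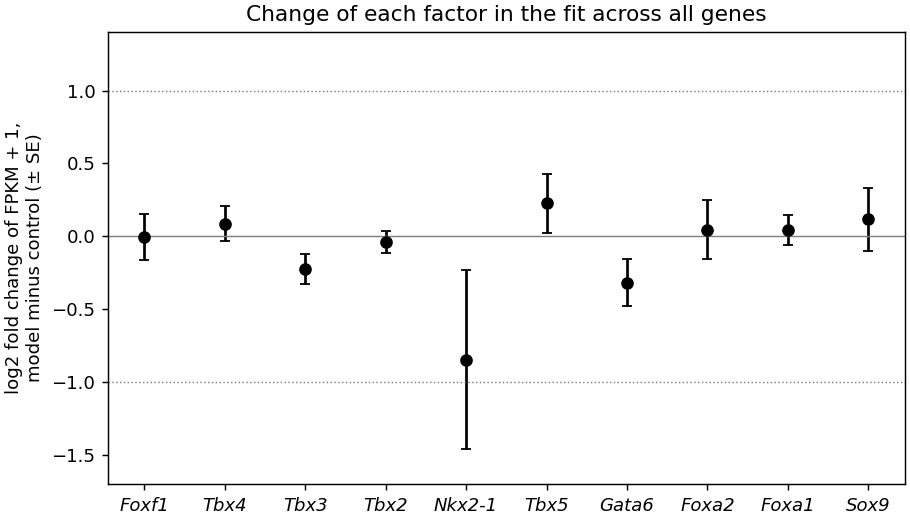
Fitted log2 fold change of FPKM + 1, PF model minus control, for each factor, with bars of 1 SE and dotted lines at 1 and -1. The factors lie between -0.32 for Gata6 and 0.23 for Tbx5, except Nkx2-1 at -0.85 with an SE of 0.62.

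Levels per gene on the FPKM scale ran in a similar order in most libraries. In controls the mean was 41.2 ± 4.42 FPKM (SD, n = 3) for Foxf1, 19.6 ± 18.9 for Nkx2-1, 18.7 ± 1.57 for Tbx4, 18.6 ± 0.946 for Tbx3 and 15.5 ± 0.431 for Tbx2. It was 12.8 ± 3.57 for Tbx5, 12.5 ± 0.243 for Gata6, 9.74 ± 1.14 for Foxa2, 4.14 ± 0.376 for Foxa1 and 1.87 ± 0.131 for Sox9. The control values of Tbx4 and Tbx3, of Tbx2 and Tbx5, and of Tbx5 and Gata6 overlapped, and those of Nkx2-1 overlapped with all from Foxf1 to Foxa2. Neighbours with no overlap in controls were Tbx3 and Tbx2, Gata6 and Foxa2, Foxa2 and Foxa1, and Foxa1 and Sox9. In every library Sox9 ranked 10 and Foxa1 ranked 9, and Nkx2-1 ranked 8 in all but control 3, where it ranked 1. The level and rank of Nkx2-1 hold only for transcripts under that name. They leave out the 10 transcripts named AABR07064373.1 that begin at its annotated start. Those had summed means of 13.9 FPKM in controls and 13.7 in models. Against all genes tested, whose median was 3.21 FPKM, the factors ranged from percentile 41.0 (Sox9) to percentile 96.9 (Foxf1). The mesenchymal T-box factors lay between percentiles 85.2 and 90.7, Gata6 and Foxa2 at 81.4 and 78.6, and Foxa1 at 56.5.

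Isoform shares were compared within each factor that has several transcripts. Of 35 isoform shares tested in the factors, 6 (17.1%) did not overlap between the groups, against 3117 of 32624 (9.55%) over all genes with several transcripts. They belonged to Foxa2, Gata6 (2 transcripts), Tbx3, Tbx4 and Tbx5. The 2 Gata6 shares went in opposite directions. Shares within a gene depend on each other, since a fall of one raises the rest, so these 2 are not separate results. The FPKM of MSTRG.16154.1 itself overlapped between the groups (log2 fold change 0.10). MSTRG.16154.2 held 36.7%, 36.4% and 37.2% of Gata6 in controls and 20.6%, 18.8% and 20.3% in models, and MSTRG.16154.1 held 27.5%, 25.7% and 26.8% in controls and 36.8%, 41.1% and 32.8% in models. In Tbx3, ENSRNOT00000084018 held 1.14%, 1.33% and 1.99% in controls and 2.22%, 2.18% and 2.76% in models. By FPKM, 2 of the 37 tested transcripts of the factors and 5 of the 47 assembled transcripts at their loci did not overlap between groups, against 10.4% of all transcripts. One of these 5 is MSTRG.17994.1, at or near 0 in every library.

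**Figure D5:**
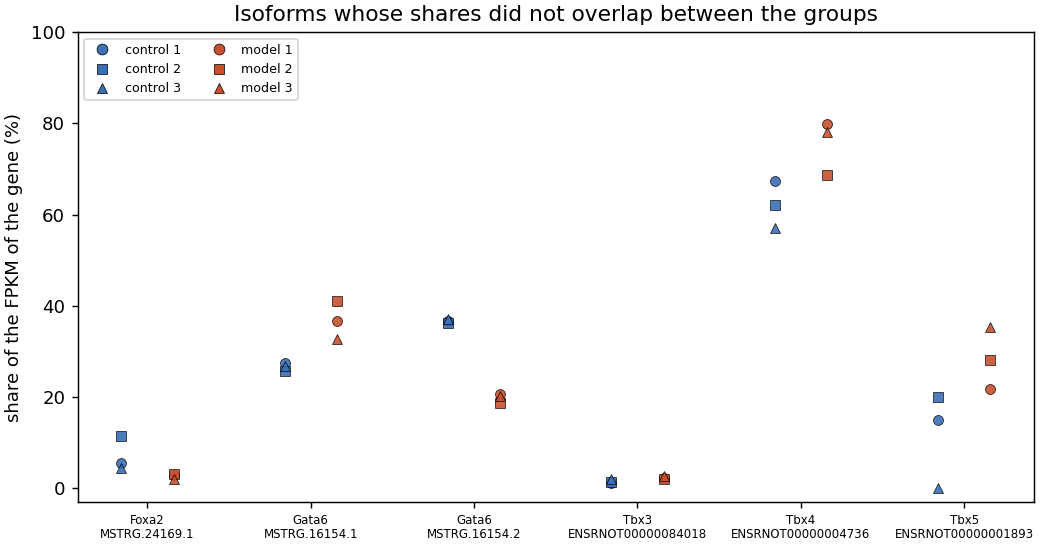
Percent of the summed FPKM of its gene held by each of the 6 isoforms whose shares did not overlap between groups, with controls in blue and PF model in red. The shares of MSTRG.16154.2 in Gata6 lie between 36.4% and 37.2% in controls and between 18.8% and 20.6% in models.

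Other transcription factors of lung development were listed in groups. Of 26 tested genes in a list of 30 other epithelial factors, 0 were called, 13 lay above 0 and 13 below, and 1 had p of at most 0.05. That gene was Irx1, an Iroquois homeobox factor, with 5.67, 5.42 and 4.74 FPKM in controls and 6.13, 7.36 and 9.37 in models (log2 fold change 0.44, adjusted p = 0.95). Every model was above every control for 4 of the 26, Irx1, Spdef, the goblet cell factor (log2 fold change 0.24), Elf5 and Cebpa (the last 2 chosen after their values were seen), where 10.3% of all genes had groups that did not overlap in either direction. The smallest p among genes below 0 belonged to Ehf, an epithelial ETS factor (log2 fold change -0.18), and Mycn (-0.08), and neither passed.
Of 22 tested genes in a list of 26 other mesenchymal and vascular factors, 0 were called and 0 had p of at most 0.05, with 7 above 0 and 15 below and a median of -0.07. Twist2, a mesenchymal basic helix-loop-helix factor, had 1.08, 1.196 and 1.21 FPKM in controls and 0.951, 0.92 and 0.734 in models (log2 fold change -0.21, adjusted p = 0.95). Of the 22, all models lay below all controls for 1 (Twist2) and above all controls for 1 (Gli2). Among all genes tested, 10.3% had groups that did not overlap. Gli2, the activator of Hedgehog targets, had a log2 fold change of 0.31 and Tcf21, the lipofibroblast factor, one of 0.19, and Gata3 had -0.16. None of these passed.

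Among 16 signals of lung bud and branching, 1 was called, where 1.45% of all genes tested were. Fgf9, the mesothelial and epithelial growth factor, had 0.374, 0.204 and 0.181 FPKM in controls and 0.12, 0.0649 and 0 in models. All models were below all controls, at levels far under the median gene, and the log2 fold change was -0.24 ± 0.08 (SE; adjusted p = 0.95), with an unadjusted p under the threshold. Wnt2, a mesenchymal signal (log2 fold change -0.18), and Bmp4, a signal of the bud tips (0.09), did not pass.
Known targets of NKX2-1, FOXA and GATA6 in lung epithelium were measured by 17 of 18 genes. None was called, 0 had p of at most 0.05, and 14 of 17 lay above 0 with a median of 0.15, against -0.002 over all genes. Aqp5, the alveolar type 1 water channel, had 120.1, 98.2 and 91.8 FPKM in controls and 125, 116 and 129 in models (log2 fold change 0.26, adjusted p = 0.95), and its groups overlapped. Sfta2, a secreted surfactant-associated protein, had 18.8, 11.0 and 8.63 in controls and 18.6, 15.3 and 25.7 in models (log2 fold change 0.64, adjusted p = 0.95). Scgb1a1, the club cell secretory protein (log2 fold change -0.25), and Cldn18, a tight junction claudin (-0.09), lay below 0.
Of 14 tested targets of SOX9, FOXF1 and the T-box factors (17 listed), 1 was called, where 1.45% of all genes tested were. Nppa, the atrial natriuretic peptide gene of heart muscle, had 0.107, 0 and 0 FPKM in controls and 0.167, 0.154 and 0.15 in models (log2 fold change 0.16, adjusted p = 0.95), a trace level in all libraries. S1pr1, the endothelial sphingosine phosphate receptor (log2 fold change -0.19), and Cdkn1b, a cell cycle inhibitor (-0.35), lay below 0, and the connexin Gja1 (0.10) and the integrin Itga5 (0.06) above.

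Cell type markers were used to check the tissue label. Between 35778631 and 41112682 reads per library were estimated from coverage. Markers of alveolar type 2 cells (8 of 8 found) summed to between 4566 and 6338 FPKM in controls and between 5378 and 6962 in models, of alveolar type 1 cells (8 of 8) to 920 to 1151 and 1009 to 1229, and of airway epithelium (7 of 8) to 4744 to 8045 and 4296 to 6668. Smooth muscle markers (8 of 8) lay at 110 to 146 in controls and 104 to 187 in models, and leukocyte markers (6 of 8) at 5055 to 6007 and 4870 to 6574. Fibroblast and collagen markers (8 of 8) were the one list whose sums did not overlap, 413 to 477 in controls and 488 to 574 in models. Within that list 0 of 8 were called, 5 lay above 0 and 3 below. The collagens Col3a1, Col1a2 and Col1a1 had log2 fold changes of 0.30, 0.22 and 0.18, and the fibroblast markers Dcn, Lum and Pdgfra had -0.13, -0.10 and -0.06 (adjusted p of Col3a1 0.95). No marker that was found was at 0 in all libraries, and the 1 marker called was Nppa, in the cardiac list.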

How the data were processed

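Lung RNA of 3 control and 3 PF model rats was analysed, grouped by the condition in the labels. The authors mapped the reads (Bowtie2 and Tophat2 per the methods), assembled them and deposited FPKM for each transcript, estimated with StringTie and Ballgown as the methods state. Their processing notes also name HISAT2, and no genome build is given in the sources used here. The deposited coverage per transcript, a signal not scaled for library size, was turned into estimated reads (coverage times length, divided by 150 bases). Deposited circRNA values were raw back-splice counts, and their SRPBM signal was not used.

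FPKM were summed per gene name over transcripts on the strand of the gene that share exons with it. Genes holding an annotated transcript, and single transcripts, were kept where at least 3 of 6 samples had FPKM above 0. They were tested two-sided by limma 3.58.1 with a trend on log2(FPKM + 1) in R 4.3.3, so fold changes understate the change of low features. P-values were adjusted by the Benjamini-Hochberg method over all features tested. For a call, the unadjusted p could not exceed 0.05 and the group means had to be at least 1 apart on the log2 scale, after the methods of the study. Foxa1 and Tbx2 were taken from an added fit over all named genes, since the table gives them no annotated transcript. Single values were compared with exact two-sided permutation tests, whose smallest p is 0.1. The edgeR 4.0.16 test of circRNAs was not run, since the 1 circRNA is under the minimum of 10 reads, and edgeR served TMM scaling before voom. Tests were checked on simulated data. Python 3.11.15, pandas 2.3.3, numpy 2.4.6, scipy 1.17.1 and matplotlib 3.10.9 were used.

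The members and all gene lists were chosen with earlier results of these data known. All 10 factors are named. Their transcripts, and assembled ones within 5000 bases, could be named at a mean FPKM of at least 0.1 in a group or with a call, and those singled out among them, with MSTRG.17994.1, were chosen after their values were seen. From other lists the text names each called gene and the genes of smallest p per direction with mean FPKM of at least 1. Nothing in the labels ties libraries to separate litters or batches. The limma p-values set the group difference against the variation between these samples, with the variance estimate shared in part across all features tested. Deviations of same-numbered control and model libraries were close to uncorrelated. With so few libraries this cannot show whether the numbers pair the samples, and the main tests treat the samples as unpaired. Listed names missing from the table were not analysed here. The estimated reads stand in for depth, and no counting intervals were computed from them.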

Additional observations from a re-analysis of the deposited data

How the results depend on the processing

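Both called Gata6 transcripts kept their call under every alternative run on transcripts, with log2 fold changes from -0.986 to -0.797 (MSTRG.16154.2) and from 0.894 to 1.402 (MSTRG.16155.1) when single libraries were left out. MSTRG.6156.1 was at -0.251 without model 2 and lost its call, and at a mean FPKM of at least 1 it was not tested. No factor was called under any alternative.

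Signs of changes near 0 depended on the choices. With annotated transcripts alone Gata6 became 0.092 and Foxf1 0.021, with all rows Sox9 became -0.144, and rescaling to TPM, which moved the median of all genes from -0.002 to 0.054, gave 0.078 for Foxf1 and 0.04 for Tbx2. Tbx4 became -0.074 with length weights and -0.07 with limma-voom. Leaving out single libraries gave -0.082 to 0.267 for Foxa2, -0.129 to 0.264 for Sox9, -0.161 to 0.092 for Foxf1 and -0.01 to 0.36 for Tbx5.

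Leaving out single libraries gave between 1 and 3 called transcripts of the factors. The count was 2 without control 1, control 3 or model 1, 3 without control 2 or model 3, and 1 without model 2, and MSTRG.16154.2 was among them each time. Added were MSTRG.9312.12 without control 1, ENSRNOT00000001893 and MSTRG.9312.4 without control 2, MSTRG.24169.1 without control 3, MSTRG.6141.4 without model 1, and ENSRNOT00000011552 and MSTRG.9312.10 without model 3. At the loci the count ran from 1 (without model 2) to 3. Among other transcription factors it ran from 0 to 1 (Foxl1, without control 1). Among signals and targets it ran from 0 to 3. It was 3 without control 1 (Sfta2 added), 0 without model 3, and 1 without control 2, control 3 or model 1 (Fgf9) and without model 2 (Cdkn2a). It was 0 at a mean FPKM of at least 1, which leaves Fgf9 and Nppa untested, and it was 1 with limma without trend, where Nppa was lost. Over all genes 278 calls became 58 at a mean FPKM of at least 1 and 519 with annotated transcripts alone. The causes were not tested beyond these constructions.

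With the replicate number as a block, 0 factors and 1 transcript of the factors were called, and 300 genes in all. MSTRG.17992.15, upstream of Foxf1, was called with the block and without model 3. Deviations of same-numbered libraries correlated at 0.069, 0.05 and -0.066, and not every library correlated best with its own number. DESeq2 on circRNAs was not run, since none of the factors has one with enough reads. Features of under 50 estimated reads, such as MSTRG.6156.1, are limited by depth.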
